A study of Mus musculus with 6 samples.

Results

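Hippocalcin and 7 related calcium-binding proteins were followed in brains of mouse embryos at stage E12.5. The embryos were with or without a Cre that acts on Rest and p53 in neural progenitors. The 8 genes, out of 16593 named genes on the arrays, were Hpca, Hpcal1, Hpcal4, Ncald, Ncs1 (listed on the array under its old symbol Freq), Vsnl1, Calb1 and Kcnip1, and they were taken by symbol with all their probes. Hpca was included because its level was higher in the knockout brains, so its values are given as a description, without a test. The other members were taken as related calcium-binding proteins. All 8 members had a probe, 12 in all. Of these, 11 probes for 7 genes were detected (detection p under 0.05) on at least 3 of the 6 arrays and were tested.

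Total RNA from 6 brains of strain C57/BL6 was hybridised to Illumina BeadChips. The 3 knockout embryos carried a Nestin Cre transgene with Rest GTi/GTi and p53 fl/fl alleles, and the 3 control embryos had the same Rest and p53 alleles but no Cre. The groups thus differ in Cre, Rest and p53 at once, and the parts of these in any difference cannot be told apart. GTi is a gene trap that lies inverted in Rest and leaves splicing intact until Cre turns it round, and fl/fl marks p53 alleles that Cre deletes. Cre was driven by the Nestin promoter, which is active in neural progenitors, so cells of whole brain outside the Nestin lineage, such as blood cells, were not targeted by design. All levels below are log2 intensities after background correction and quantile normalization with neqc of limma, and all differences are knockout minus control on that log2 scale. In whole brain, a smaller number of cells of one type and less RNA per cell cannot be told apart.

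Neuronal calcium sensors are small EF-hand proteins that change shape when calcium enters the cell. Most carry a myristoyl group, and in several of them, hippocalcin among these, calcium exposes this lipid and moves the protein to membranes, where it meets ion channels, receptors and enzymes of lipid signalling. Hippocalcin is best known from hippocampal pyramidal cells, where it takes part in the slow afterhyperpolarization. REST is a repressor that binds the RE1 element and keeps many neuronal genes off in cells that are not neurons.

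The promoter windows of Hpca are shown because this gene chose the set and because REST acts through DNA. Hpca lies on the minus strand of chromosome 4, at chr4:129111570-129125919 (RefSeq, GRCm38.p6). RefSeq windows of 300 bases, 250 before and 50 after a start site, were at hand for 6 members, 11 windows in all, and 3 of them belonged to Hpca. All 3 lie inside the annotated gene, with start sites at positions 129121747, 129121303 and 129120172, and are written 5′ to 3′ on the minus strand. Capitals mark letters that match the GC box GGGCGG or the right arm of the RE1 element, GGACAG, on either strand.
Hpca window at chr4:129121698-129121997: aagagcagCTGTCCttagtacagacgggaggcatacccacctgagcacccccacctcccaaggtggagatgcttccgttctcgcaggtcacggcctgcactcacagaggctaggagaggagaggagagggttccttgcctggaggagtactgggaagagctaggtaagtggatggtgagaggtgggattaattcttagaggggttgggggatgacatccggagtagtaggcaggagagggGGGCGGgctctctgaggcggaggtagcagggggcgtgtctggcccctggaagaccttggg
Hpca window at chr4:129121254-129121553: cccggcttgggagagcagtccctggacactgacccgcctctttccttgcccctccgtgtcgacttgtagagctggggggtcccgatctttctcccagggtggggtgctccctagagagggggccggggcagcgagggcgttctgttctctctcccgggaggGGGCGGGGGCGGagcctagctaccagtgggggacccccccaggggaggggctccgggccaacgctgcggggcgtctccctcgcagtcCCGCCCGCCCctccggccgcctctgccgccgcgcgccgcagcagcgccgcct
Hpca window at chr4:129120123-129120422: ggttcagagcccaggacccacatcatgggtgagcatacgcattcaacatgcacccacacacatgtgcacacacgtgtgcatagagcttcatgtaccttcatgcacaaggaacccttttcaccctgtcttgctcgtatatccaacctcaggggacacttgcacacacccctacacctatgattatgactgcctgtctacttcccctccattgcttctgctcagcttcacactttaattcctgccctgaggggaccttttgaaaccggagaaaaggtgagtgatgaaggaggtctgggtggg
The RE1 core, CAGCACC followed after any 2 bases by GGACAG, was searched on both strands and was found in 12 of the 32851 windows of all genes, or 0.0365%, and in 0 of the 11 windows of members. Its left arm CAGCACC stood in 7.14% of all windows and in 0 of the member windows. The right arm GGACAG stood in 22.2% of all windows and in 1 member window, the first Hpca window, as CTGTCC at bases -242 to -237 from the start site. The GC box was present in 35.7% of all windows, in 7 of the 11 member windows and in 2 of the 3 Hpca windows. These are matches of letters in short windows and do not cover the introns or more distant sequence.

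Hpca was higher in all 3 knockout brains than in any control brain. Its probe ILMN_2787238 was at 8.17, 8.70 and 8.38 in knockout replicates 1, 2 and 3, and at 7.15, 7.54 and 7.25 in control replicates 1, 2 and 3. The lowest knockout array lay above the highest control array, and knockout replicate 2 was the highest of all 6. The means were 8.42 ± 0.27 in knockout and 7.31 ± 0.20 in control (SD, n = 3 each), a difference of 1.10 or 2.15-fold. With the differences ordered by sign from the most positive down, this probe ranked 9 of 13755 probes tested. The groups failed to overlap in this direction for 4.68% of all probes tested, and since the member was chosen on this contrast its place there carries no weight of its own. The probe was detected on all 6 arrays.

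The deposited linear intensities of Hpca, before the background correction made here, were 534.7, 664.0 and 582.0 in knockout replicates 1 to 3. In control replicates 1 to 3 they were 389.9, 433.3 and 400.0. The order of the arrays was the same and the groups again lay apart, but the size depended on the background. The difference was 0.54 (1.45-fold) without background correction and 0.75 (1.68-fold) with the normexp method. Leaving out 1 array at a time gave 0.96 (without knockout replicate 2) to 1.23 (without knockout replicate 1).

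**Figure D1:**
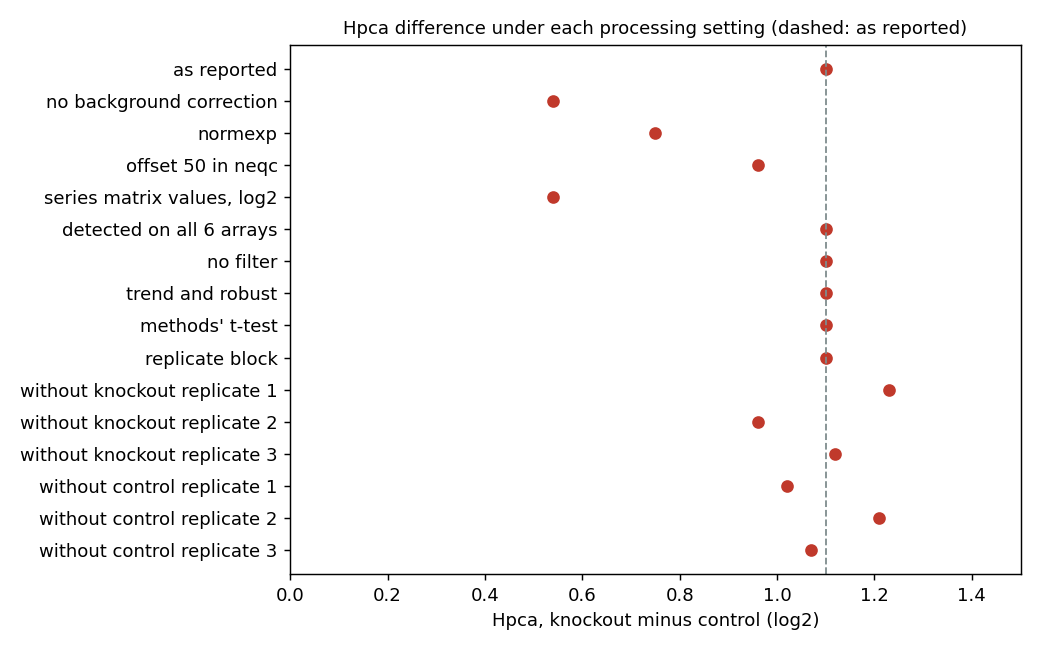
Difference of Hpca between knockout and control brains (x axis, log2) under each processing setting with the repaired probe IDs (y axis), with the reported value of 1.10 as a dashed line. All points lie above 0, with the lowest at 0.54 where no background correction was made here and the highest at 1.23.

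The closest relatives of hippocalcin did not show a difference of that kind. Hpcal1 encodes a sensor of the visinin-like branch that is widely found in neurons, and it had 2 probes. Probe ILMN_2789089 was at 9.04, 8.97 and 8.56 in knockout replicates 1 to 3 and at 8.79, 8.94 and 7.81 in control replicates 1 to 3. The groups overlapped, and control replicate 3 was the lowest array. The difference was 0.35 (SE 0.31, 95% interval -0.39 to 1.08, adjusted p = 0.999 by limma), and it was 0.00 without control replicate 3. Probe ILMN_2738750 was at 7.37, 6.62 and 7.24 against 6.92, 7.69 and 6.63. Here knockout replicate 2 was the lowest array and control replicate 2 the highest, and the difference was 0.00 (SE 0.32, interval -0.76 to 0.75).

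Hpcal4 encodes another visinin-like sensor of brain. Its levels were 7.05, 7.37 and 6.89 in knockout and 7.35, 6.97 and 7.14 in control brains. The 2 groups covered nearly the same range, with a difference of -0.05 (SE 0.17, interval -0.46 to 0.36). Ncald, which encodes neurocalcin delta, a sensor that binds clathrin and actin, was at 9.88, 10.41 and 9.89 in knockout and 10.12, 10.07 and 10.21 in control brains. Knockout replicate 2 stood above the control arrays and the other 2 knockout arrays stood below them. The difference was -0.07 (SE 0.17, interval -0.48 to 0.33), and -0.25 without knockout replicate 2.

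Vsnl1 encodes visinin-like protein 1, a sensor released from injured neurons and used as a marker of neuronal damage. Its levels were 8.43, 8.53 and 8.18 in knockout and 8.75, 8.58 and 8.24 in control brains. Replicate 3 was the lowest array in each group and the groups overlapped, with a difference of -0.14 (SE 0.17, interval -0.55 to 0.28). Leaving out 1 array gave -0.28 (without control replicate 3) to -0.03 (without control replicate 1).

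Ncs1 encodes the sensor first described in flies as frequenin, which promotes transmitter release and works with a phosphatidylinositol kinase. It had 3 probes. Probe ILMN_2498878 was at 10.55, 10.85 and 10.12 in knockout and at 10.49, 10.72 and 9.82 in control brains. The arrays of each group spread over more than the distance between the groups, which was 0.16 (SE 0.28, interval -0.51 to 0.82), and -0.10 without control replicate 3. Probe ILMN_1244929 was at 7.02, 7.30 and 6.76 against 7.16, 6.95 and 7.10, a difference of -0.04 (SE 0.17). Probe ILMN_1255414 was detected in 2 knockout brains and 1 control brain only, and ranged from 5.72 to 6.95 in knockout and from 6.07 to 6.65 in control brains. All 3 probes overlapped between the genotypes.

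Kcnip1 encodes a sensor that sits on A-type potassium channels as an auxiliary subunit. Its probe ILMN_1219628 was at 7.65, 7.86 and 7.12 in knockout and 7.77, 7.77 and 7.08 in control brains. Replicate 3 was the lowest in both groups, and the difference was 0.01 (SE 0.26, interval -0.62 to 0.63). The other probe, ILMN_2968369, was at 6.96, 7.39 and 6.53 against 6.27, 6.28 and 7.08. The probe was detected in 3 knockout brains and in 1 control brain, replicate 3, which lay above 2 of the knockout arrays. This probe thus passed the detection minimum through the group where it was higher. The difference was 0.42 (SE 0.30, interval -0.29 to 1.12), and leaving out 1 array gave 0.20 (without knockout replicate 2) to 0.69 (without control replicate 3).

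Calb1 encodes calbindin, a cytosolic buffer with EF hands that is not a member of the sensor family. Its probe was not detected on any of the 6 arrays, at 5.29, 5.15 and 5.26 in knockout and 5.24, 5.45 and 5.41 in control brains, and no fold was given.

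**Figure D2:**
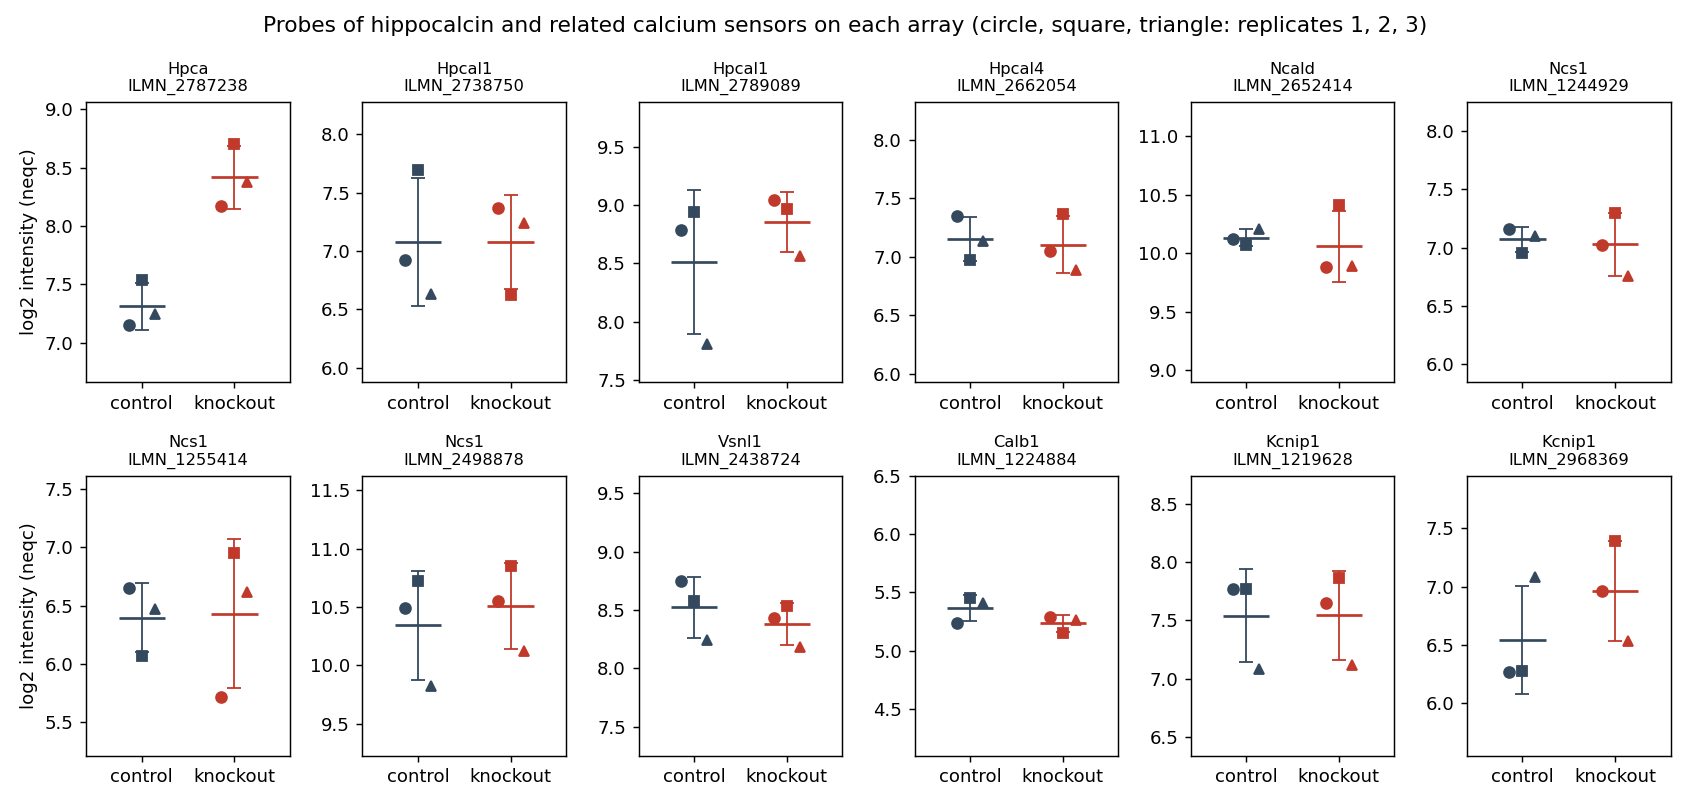
Log2 intensity (y axis) of each of the 12 probes in control and knockout brains, with replicates 1, 2 and 3 as circle, square and triangle, the mean as a line and 1 SD as error bars. The Hpca panel is the one in which the groups lie apart, at 7.15 to 7.54 in control and 8.17 to 8.70 in knockout brains; Calb1 was not detected.

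Without Hpca, 10 probes of 6 members were tested. Of these, 5 differences were positive and 5 negative, with a median of 0.00 and a range of -0.14 to 0.42. The median over all probes tested was 0.01, and 51.3% of all probes were positive. Limma called 0 of the 10 at an adjusted p under 0.05, where 0% of all 13755 probes were called and no adjusted p lay below 0.383. Before adjustment it called 0 of the 10 at p under 0.05, against 4.59% of all probes (2.25% higher and 2.34% lower in knockout). The groups of 0 of the 10 probes failed to overlap, against 4.68% of all probes on the higher and 4.62% on the lower side. As a further check, the methods' t-test called 0 of all probes after adjustment and 624 before it. The adjusted p was 0.999 for each of the 10. The half-widths of the 95% intervals were 0.39 to 0.77, so smaller measured differences could not be told from 0 with 3 arrays a group. Larger ones need not be called either, because these intervals belong to the p-value before adjustment over 13755 probes.

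**Figure D3:**
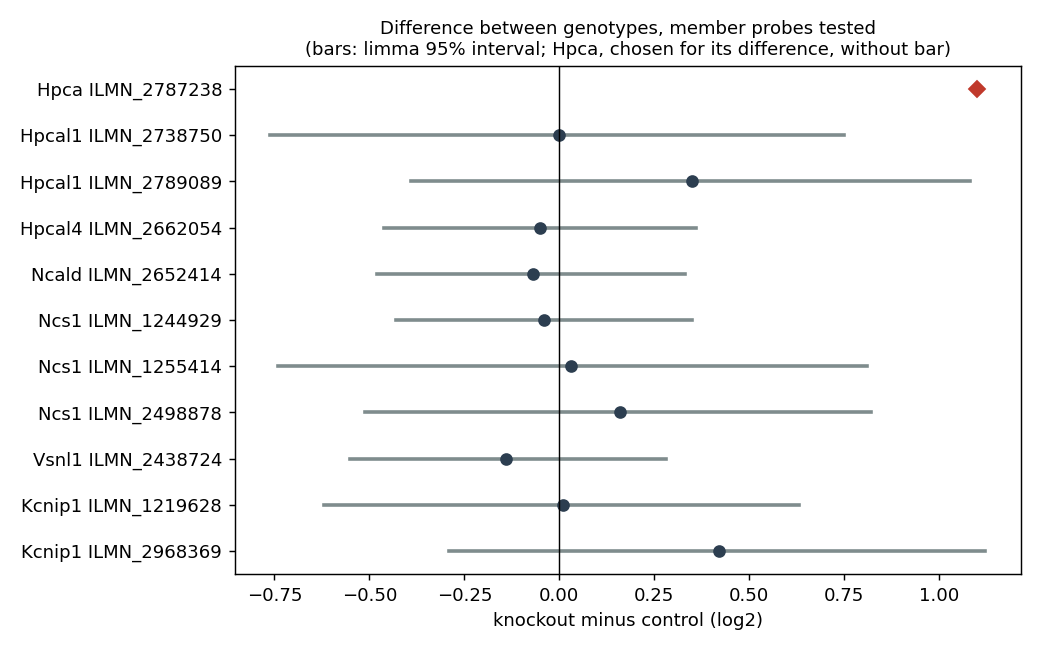
Difference between knockout and control brains (x axis, log2) of the 11 tested probes (y axis), with limma 95% intervals as bars except for Hpca, which was chosen for its difference. All 10 intervals include 0, and Hpca lies at 1.10.

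Some members varied together within genotypes. After the mean of each genotype was taken out, Kcnip1 probe ILMN_1219628, Hpcal1 probe ILMN_2789089 and Vsnl1 followed Ncs1 probe ILMN_2498878 over the 6 arrays, with correlations of 0.97, 0.92 and 0.89. Among the other 13754 probes tested, 1.88% reached 0.89. The other probes of the same genes did not share this, with -0.14 for Kcnip1 probe ILMN_2968369, 0.29 for Hpcal1 probe ILMN_2738750, and -0.06 and 0.42 for Ncs1 probes ILMN_1255414 and ILMN_1244929. For Hpcal4 and Ncald the correlations were 0.38 and 0.31. Replicate 3 was the lowest of its group for all of these 4 probes, in knockout as in control brains. Correlations of the members with Hpca itself ran from -0.29 for Vsnl1 to 0.53 for Kcnip1 probe ILMN_2968369. The named genes whose levels were most like those of Hpca were Kdsr, a reductase of sphingolipid synthesis, with r = 0.996, and the translation factor Eif4a1, with r = 0.993. They were followed by Mlec, a lectin of the endoplasmic reticulum, at 0.984, and by the receptor Gpr27 and the ribosome factor Eif6, at 0.983 each. Of 12947 named probes, 0.602% had r over 0.9. These are correlations over 6 arrays in 2 groups and hold the difference between the genotypes, and they are given as a description. The differences of the 5 genes were 0.20 to 0.55.

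Other neuronal calcium sensors gave no call either. All 6 of this list had a probe and 3 were tested. Kcnip3, which encodes a potassium channel subunit that also acts as the transcriptional repressor DREAM, was at 8.11, 8.29 and 7.80 in knockout and 8.17, 8.36 and 8.11 in control brains. The difference was -0.15 (SE 0.16), with overlapping groups. Guca1a and Guca1b, activators of guanylate cyclase in photoreceptors, differed by -0.22 (SE 0.23) and 0.19 (SE 0.29). Recoverin (Rcvrn), Kcnip2 and Kcnip4 did not reach the detection minimum. The median of the 3 was -0.15, with 1 higher and 2 lower.

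Of 9 other EF-hand calcium buffers 5 were tested, with 3 higher, 2 lower and a median of 0.03. Calb2, which encodes calretinin, differed by 0.03 (SE 0.14) for probe ILMN_2827729 and by -0.15 (SE 0.34) for probe ILMN_2597412. Necab2, a neuronal EF-hand protein, was at 9.55, 9.62 and 9.55 in knockout and 9.32, 9.46 and 8.97 in control brains. Its groups did not overlap, as for 4.68% of all probes tested in this direction, and the difference was 0.32 (SE 0.15, adjusted p = 0.999 by limma). Necab1, of the same family, differed by 0.48 (SE 0.26) for the tested probe, with overlapping groups. That probe was detected in 3 knockout brains and 1 control brain, so it passed the detection minimum through the group where it was higher. None of the 5 passed at an unadjusted p under 0.05.

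Calmodulin and its relatives, the general calcium sensors of the cell, had 5 of 10 genes tested, with 3 higher, 2 lower and a median of 0.11. Calm2 was at 14.14, 14.02 and 14.05 in knockout and 14.01, 13.85 and 13.87 in control brains, with a difference of 0.16 (SE 0.12). Calm3 differed by -0.02 (SE 0.12) and Chp1, a calcineurin-like partner of sodium-proton exchangers, by 0.11 (SE 0.15) for probe ILMN_2677056. None passed the test at either threshold.

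Of 21 calmodulin effectors, kinases, calcineurin subunits and calmodulin-binding proteins, 16 were tested, with 11 higher and 5 lower and a median of 0.05. The calcineurin subunits Ppp3cb and Ppp3r1 differed by -0.02 (SE 0.11) and 0.05 (SE 0.12), and Gap43, a growth cone protein that binds calmodulin, by -0.02 (SE 0.22). At an unadjusted p under 0.05, Nrgn was higher and Camkv lower, and 0 passed after adjustment. That is 1 gene of 16 in each direction, where 2.25% of all probes tested were called higher and 2.34% lower. By probes it was 3 of 23, against 4.59% of all probes, and so few carry no weight as a group. Nrgn encodes neurogranin, which holds calmodulin in dendrites, and was at 6.68, 7.60 and 6.50 in knockout and 6.21, 6.03 and 6.38 in control brains. All 3 knockout arrays but 0 control arrays detected it, so it passed the detection minimum only through the group where it was higher. Its mean knockout level was 1.28-fold above the lowest detected signals of the control arrays on the neqc scale. Those signals were 6.62, 6.50 and 6.59, close to knockout replicates 1 and 3, so the 1.28-fold rested mainly on knockout replicate 2. The difference measured for Nrgn was 0.72 (SE 0.29), but 0.38 without knockout replicate 2 and 0.26 without background correction, so that its size rested on both. Camkv, a pseudokinase of the calmodulin kinase family, was at 8.20, 7.89 and 7.88 in knockout and 8.86, 8.43 and 8.34 in control brains. The difference was -0.55 (SE 0.18), and -0.31 without background correction. Camkk2, a kinase that activates other calmodulin kinases, passed the unadjusted threshold by 1 of its 2 probes, and differed by 0.35 (SE 0.12) for that probe, ILMN_1256263, and by 0.31 (SE 0.16) for probe ILMN_2846803. Without background correction probe ILMN_1256263 differed by 0.20.

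Among 15 partners of the sensors, 8 were tested, with 4 higher and 4 lower and a median of 0.00. Kcnd2, the A-type potassium channel subunit that Kcnip proteins join, was at 6.41, 6.85 and 6.46 in knockout and 7.50, 6.93 and 7.42 in control brains. The groups did not overlap, as for 4.62% of all probes tested in this direction, though knockout replicate 2 lay just under control replicate 2. The difference was -0.71 (SE 0.20, adjusted p = 0.992 by limma), and -0.25 without background correction. The probe was detected in 1 of the knockout and 3 of the control brains, so it passed the detection minimum through the group where it was higher. Knockout replicates 1 and 3 lay under the lowest detected signals of their arrays, 6.57 and 6.47. Kcnd2 was the 1 gene of the 8 at an unadjusted p under 0.05 by limma, where 2.34% of all probes tested were called lower. The small GTPase Arf1, the clathrin adaptor subunit Ap2b1 and the nicotinic receptor subunit Chrna4 differed by -0.02 (SE 0.14), 0.00 (SE 0.15) and -0.03 (SE 0.15). For Ap2b1 the 3 other tested probes differed by 0.09 to 0.42.

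The arrays were alike in depth, with 13416 to 13889 probes detected of 25696, and the array of knockout replicate 2 was set off from the rest on principal component 1 (40.7, against -14.8 to -0.839 for the other 5). The labelled tissue was checked on young neuron genes, of which 16 of 18 were tested. Their summed level was 17.14, 17.56 and 17.01 in knockout and 17.20, 17.19 and 17.24 in control brains, highest on knockout replicate 2, where Hpca was also highest. Genes of mesenchyme and meninges, with 8 of 9 tested, summed to 10.44 on that array and to 12.81 to 13.64 on the other 5. Choroid plexus genes, with 4 of 6 tested, summed to 13.17, 8.87 and 13.39 in knockout and 13.40, 13.78 and 14.17 in control brains. Every knockout array lay below every control array there, but knockout replicate 3 lay only just under control replicate 1. Of the 4 genes only 1, Ttr, had groups that did not overlap, as 4.62% of all probes tested did in this direction. By the brightest probe of each, all 8 mesenchyme genes and all 4 choroid plexus genes had a lower mean in knockout, while 51.3% of all probes tested were higher. Other tested probes differed by 0.08 for Folr1, and by 0.24 and -0.36 for Aqp1. The median mesenchyme deviation from the control mean was -0.63, -2.79 and 0.31 on knockout replicates 1 to 3. On control replicates 1 to 3 it was -0.38, 0.36 and 0.03, so the mesenchyme count leaned on knockout replicate 2. Midbrain and hindbrain genes, with 2 of 11 tested, were in turn highest on knockout replicate 2, at a summed level of 13.97 against 13.07 to 13.67 on the other 5. En1, a midbrain and hindbrain factor, was at 10.50 there and at 8.64 to 9.80 elsewhere. The hindbrain genes Hoxa2 (probe ILMN_2874270) and Hoxb2, which were not tested, were at 9.37 and 8.70 there, against 6.11 to 6.62 and 5.32 to 6.06 on the other arrays. The other untested genes of this list mostly did not follow. Pax7, Hoxb3, Hoxa3, Hoxb4, Hoxb5 and Egr2 were not highest on that array. Hoxa5 was, at 5.86, but it was not detected on any array. Without this array the Hpca difference was 0.96. Summed levels of apical progenitor genes (8 of 10 tested; Pax6 and Prom1 not tested) were 15.92 to 16.14 in knockout and 15.84 to 15.99 in control brains. The Rest probe was detected on 0 of the 6 arrays, at 5.30, 5.65 and 5.33 against 5.17, 5.26 and 5.21, and so could not check the genotype labels. The part of cell composition in the level of Hpca was not tested.

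**Figure D4:**
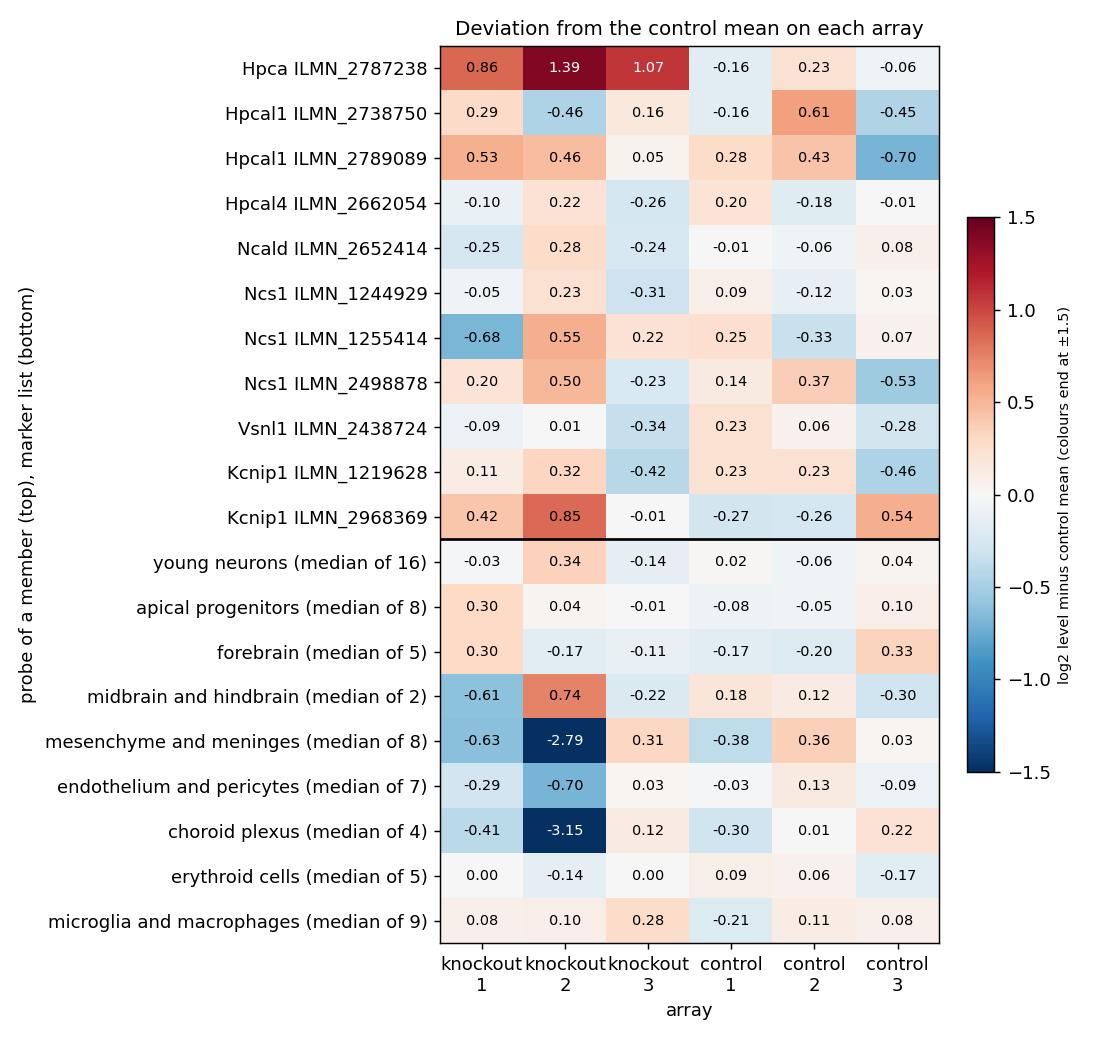
Log2 level of each tested probe (upper rows) and median of each marker list (lower rows) on each array, relative to the control mean; red is higher and blue lower, with colours ending at 1.5. The Hpca row is positive on all 3 knockout arrays and carries the darkest red of the member rows, and the mesenchyme and choroid plexus medians reach -2.79 and -3.15 on knockout replicate 2.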

How the data were processed

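RNA was measured on 6 arrays, 1 for each of 3 knockout and 3 control brains that the labels call biological replicates. Litter, sex and slide are not given in the labels, so the p-values may hold spread from any of them. Xist, an RNA of female cells, was at 12.16, 6.53 and 6.53 in knockout and 12.13, 6.61 and 12.31 in control brains (probe ILMN_3022688). The sexes were thus not balanced between the groups, and their part was not tested. BeadStudio was used by the authors to read the arrays, and lumi for quantile normalization (version not stated). The deposited table gives each probe an intensity on a linear scale, and a detection p-value that the authors' software took from negative control beads. Sorted intensities differed between arrays by 1.61% or less, and were taken as already normalized. After 2 blank ID cells (lines 3893 and 3895) probe IDs were displaced; the blanks were dropped and IDs paired with values in order, leaving 25696 probes. Over adjacent probes of 1 gene beyond the blanks, mean levels correlated at 0.482 with the repaired pairing (6232 pairs) and at 0.250 as deposited.

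Intensities were corrected and turned to log2 with neqc (offset 16) of limma 3.58.1 in R 4.3.3. Probes with a detection p under 0.05 on at least 3 arrays were compared by lmFit and eBayes, two-sided and without covariates, with Benjamini-Hochberg adjustment over 13755 probes. The study used a t-test, which was run as an alternative. Symbols came from the platform annotation, updated by gene identifier (23977 probes named, 1719 unnamed). Promoter windows came from RefSeq (GRCm38.p6). A gene detected on no array of a group was compared with the lowest detected signals of the arrays of that group. Probes not detected in either group have no fold, and levels of different probes are not compared. Each gene of a list was represented by its brightest tested probe.

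Named were all members with all probes, the other neuronal calcium sensors, the 3 brightest tested genes of each other calcium list with any gene at an unadjusted p under 0.05, and the 5 genes most like Hpca. Hoxa2, Hoxb2, the other untested midbrain and hindbrain genes and the further probes of named genes were given after their values were seen. The members and lists were chosen with earlier results of these data known. The fit was tested on simulated data. Alternatives changed the background correction, the offset, the value table, the filter, the spread estimate, the test, the replicate block and each array in turn. Correlations of deviations between arrays of the same replicate number were -0.01, -0.08 and -0.15, so the numbers were not taken as pairs.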

Additional observations from a re-analysis of the deposited data

How the results depend on the processing

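The direction of Hpca could not change when 1 array was left out, because its groups did not overlap. The filter, the spread estimate, the test and the replicate block left its difference at 1.10. That difference was 0.54 without background correction and with the series matrix values, which hold the same intensities, and 0.75 with normexp. With the probe IDs left as deposited the name falls on another line of values, at 0.35. Leaving out 1 array gave 0.96 to 1.23. None of the other members passed the adjusted threshold under any alternative. With all probes, the adjusted count of 0 became 1 without background correction, with normexp, with the series matrix values and with the trend and robust options, and stayed 0 to 0 when 1 array was left out. The unadjusted count of 632 became 1169 with no filter on dim probes, where more probes are tested, and 481 to 928 with 1 array left out (without control replicate 2 and without knockout replicate 3).

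Small differences changed sign. With IDs as deposited the names fall on other lines of values, so a sign there says nothing of the gene. In that setting Ncs1 probe ILMN_2498878 was at -0.04, Ncs1 probe ILMN_1255414 at -0.05 and Vsnl1 at 0.33. With repaired IDs Vsnl1 stayed negative, at -0.28 to -0.03. With normexp Ncs1 probe ILMN_1255414 was at -0.01. Leaving out 1 array gave -0.10 to 0.35 for Ncs1 probe ILMN_2498878, -0.22 to 0.39 for ILMN_1255414, -0.18 to 0.09 for ILMN_1244929, -0.18 to 0.06 for Hpcal4, -0.23 to 0.22 for Kcnip1 probe ILMN_1219628, -0.25 to 0.02 for Ncald and -0.01 to 0.18 for the median of the calmodulin list. The cause of the sign changes with repaired IDs was not tested. With the replicate number as a block the Hpca difference was 1.10 and 0 probes were called, and no call of a member changed. With 3 arrays a group, and several probes near the background, neither the size nor the sign of these small differences is firm.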
